A study of Mus musculus with 9 samples.

Results

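Expression of *Lin28a*, *Lin28b*, *Hmga1*, *Hmga2*, *Igf2bp1*, *Igf2bp2* and *Igf2bp3*, genes known for their fetal expression and their effects on growth, was compared between the developing and the adult pituitary gland. These 7 genes were chosen by symbol and were found among the annotated genes in the count tables. RNA was sequenced from Rathke’s pouch, the epithelial fold from which the anterior and intermediate lobes arise, of 7 Sox2Egfp/+ embryos at e13.5, and from the pituitary gland of 2 adult mice at 8 weeks after removal of the posterior lobe. All animals were of a mixed 129Sv/c57BL6J background. The embryos carried 1 allele of *Sox2*, a progenitor gene, with an Egfp reporter, and no such allele is given for the adults. Sex is not given per sample in the labels. The libraries were directional, poly(A)-selected and read as 75 bp pairs. They held 16738863 to 28537311 read pairs counted on genes in the embryos (median 24687556), and 36421545 and 31191117 in the adults. Normalised counts are given as CPM, counts scaled by the TMM method of edgeR to a common library size. A count of 3 corresponded to 0.0727 and 0.0843 CPM in the adult libraries and to at most 0.22 CPM in an embryo library. These limits cover counting error only, because copies made by PCR could not be recognised.

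LIN28A and LIN28B are RNA-binding proteins that hold back the maturation of the let-7 family of microRNAs. They bind the let-7 precursor and recruit TUT4 or TUT7, which add uridines to it, and DIS3L2 then degrades it. Mature let-7 in turn represses many transcripts with matching sites in their 3′ UTR, among them those of LIN28 itself, of HMGA2 and of the IGF2BP proteins. HMGA1 and HMGA2 are small chromatin proteins that bind AT-rich DNA, and IGF2BP1, IGF2BP2 and IGF2BP3 bind RNA and affect its stability, location and translation. Mice without HMGA2 or without IGF2BP1 are small, and transgenic overexpression of HMGA1 or HMGA2 in mice leads to pituitary adenomas.

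Because let-7 links these genes, its sequence and its matches in their 3′ UTRs are shown first. Of the 11 mature names of the let-7 family found in the RefSeq microRNA table (GRCm38.p6), 10 share the seed at bases 2 to 8 and 1, let-7j, has another. The following 4 members have the shared seed, which is in capitals, and let-7d, let-7e and let-7g are shown beside let-7a because they differ from it outside the seed.
let-7a: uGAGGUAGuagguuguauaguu
let-7d: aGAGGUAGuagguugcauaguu
let-7e: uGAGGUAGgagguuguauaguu
let-7g: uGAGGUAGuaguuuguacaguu

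The 3′ UTR of each gene’s principal transcript in GENCODE release 21 was searched for CTACCTC, the complement of this seed, on the transcript’s strand. All 7 genes held at least 1 match. *Lin28b*, *Hmga2* and *Igf2bp1* each held 4, *Lin28a* held 2, and *Hmga1*, *Igf2bp2* and *Igf2bp3* held 1. A match followed by A, the 8-base form, was present in every gene but *Hmga1*. The match nearest to the stop codon, of the 8-base form where there was one, is shown for each gene with its 7 bases in capitals.
Lin28a: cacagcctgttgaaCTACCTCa
Lin28b: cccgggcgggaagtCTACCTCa
Hmga1: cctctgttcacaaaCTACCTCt
Hmga2: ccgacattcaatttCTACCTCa
Igf2bp1: ctgtgcgaagtaaaCTACCTCa
Igf2bp2: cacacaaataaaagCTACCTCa
Igf2bp3: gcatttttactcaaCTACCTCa

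The match lay 21 bases after the stop codon in *Hmga2* and 36 bases after it in *Lin28b*, whereas the match nearest to the stop codon lay 1715 bases after it in *Igf2bp1*. For comparison, 3′ UTRs of other coding genes with a length within a factor of 2 were searched in the same way. At least 4 matches were found in 8 of 6619 such UTRs for *Hmga2* (0.121%), in 8 of 4313 for *Lin28b* (0.185%) and in 4 of 2326 for *Igf2bp1* (0.172%). At least 2 were found in 1.98% for *Lin28a*, and at least 1 in 8.73% for *Hmga1*, 11.3% for *Igf2bp2* and 12.8% for *Igf2bp3*. Only the gene itself was left out of its comparison, so the rest of the 7 genes could be among the others. Those with at least 4 matches thus include *Hmga2* and *Igf2bp1* for *Lin28b*, and *Lin28b* for *Hmga2* and for *Igf2bp1*. A match is a description of sequence. Mature let-7 RNAs were not measured, because poly(A)-selected libraries do not hold them.

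**Figure D1:**
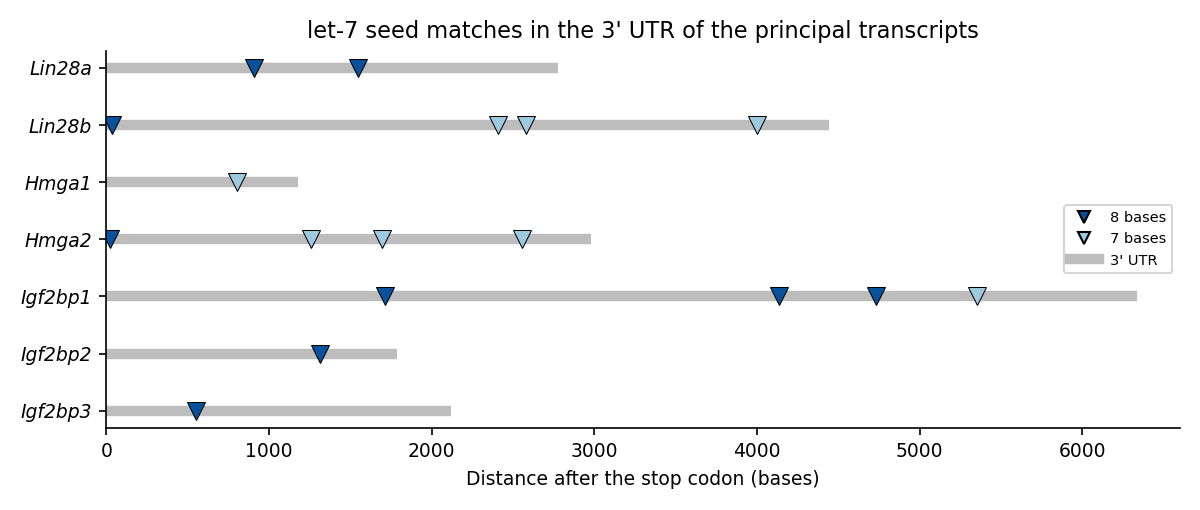
Matches to the let-7 seed along the 3′ UTR of the principal transcript of each gene. The horizontal axis gives the distance after the stop codon in bases, the grey bar spans the UTR, dark triangles are matches of 8 bases and light triangles are matches of 7 bases. Lin28b, Hmga2 and Igf2bp1 have 4 matches each and Hmga1, Igf2bp2 and Igf2bp3 have 1.

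The libraries of embryos 1 and 4 stood apart from the rest. Only 59.7% and 62.8% of their read pairs could be assigned to a gene, whereas it was 73.9% to 80.0% in the remaining embryos. Read pairs that aligned in several places made up 21.7% and 26.1% of them, compared with 14.1% to 19.7% in the remaining embryos. The adults had 7.16% and 7.52%. The 10 erythroid markers, mostly globin genes, took 14.7% and 17.0% of the counted pairs in embryos 1 and 4, whereas they took 0.780% to 2.08% in the rest of the embryos. In the adults they took 0.0866% and 0.226%. All 10 were detected with more than 3 counts in an embryo and 8 in an adult, with *Hbb-bh1* at 0 in both adults. Their most abundant gene was *Hbb-y* in the embryo, with a mean of 40109 CPM, and *Hbb-bs* in the adult, with 865 CPM. Values without both embryos are therefore given with the results.

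The labelled tissues were checked against marker lists. The 8 pituitary progenitor markers summed to 662 to 1612 CPM in the embryos (median 1179) and to 632 and 549 CPM in the adults. The 10 hormone cell markers summed to 889 to 1940 CPM in the embryos (median 1290) and to 152814 and 160413 CPM in the adults, where *Gh*, growth hormone, was the most abundant. The embryo libraries also held other tissue. Mesenchyme markers, led by *Col3a1*, summed to 682 to 2357 CPM in the embryos, against 630 and 422 CPM in the adults, and cartilage markers, led by *Col2a1*, to 218 to 402 CPM, against 36.6 and 25.6 CPM. Of the mesenchyme markers *Col1a1*, *Col3a1*, *Pdgfra*, *Twist1* and *Lum* were called higher in the embryo. *Col1a2* (log2 fold change 0.30) and *Pdgfrb* (1.09) were not called, and *Prrx1* (−2.82) was called higher in the adult. Endothelial markers, led by *Cldn5*, summed to 155 to 547 CPM in the embryos, and to 122 and 76.6 CPM in the adults. Among the neural and posterior lobe markers *Rax* and *Nkx2-1*, genes of the ventral diencephalon, were higher in the embryo, with log2 fold changes of 4.83 and 4.04, and *Map2* was higher in the adult (−2.84). Markers of oral epithelium summed to 6.74 to 18.4 CPM in the embryos and to 60.4 and 23.6 CPM in the adults, mostly from *Perp*, whereas *Krt5* (2.95) and *Krt15* (3.45) were called higher in the embryo. Those of skeletal muscle reached at most 7.48 CPM in any library, with *Myod1* and *Myh3* at 0 in both adults. Macrophage markers summed to 122 to 311 CPM in the embryos and to 102 and 161 CPM in the adults. The 8 proliferation markers, led by *Mcm5*, summed to 728 to 1160 CPM in the embryos and to 277 and 254 CPM in the adults, although *Mki67* (−0.88) and *Top2a* (−0.04) were not higher in the embryo. In these bulk samples fewer cells of a type and less RNA per cell cannot be told apart, and the part of the other tissues in the differences below was not tested.

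To find out which of the 7 genes differed between the stages, the 19371 genes whose counts averaged 5 or more across all 9 libraries were compared with edgeR’s quasi-likelihood test. A gene was called if its p-value, adjusted by Benjamini and Hochberg’s method, was below 0.05 and its fold change exceeded 4. *Hmga1*, *Hmga2*, *Igf2bp1*, *Igf2bp2* and *Igf2bp3* were called higher in the embryo, *Lin28b* was not called, and *Lin28a* had too few counts to be tested. Thus 5 of the 7 genes were called higher in the embryo, against 11.3% of all tested genes, and none was called higher in the adult, against 14.6%. Of all tested genes 25.8% were called in either direction. In 5 of the 7 genes every embryo was above both adults, which held for 26.2% of the tested genes. The genes were chosen with earlier results of these data known, so nothing is read from these shares. Fold changes are those of embryo relative to adult, and the median log2 fold change of all tested genes was −0.04. P-values measure the spread between these animals as labelled, and with 2 adults the spread among adults rests on a single difference. The 2 adults were of different sex, so sex and other differences between them cannot be told apart.

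**Figure D2:**
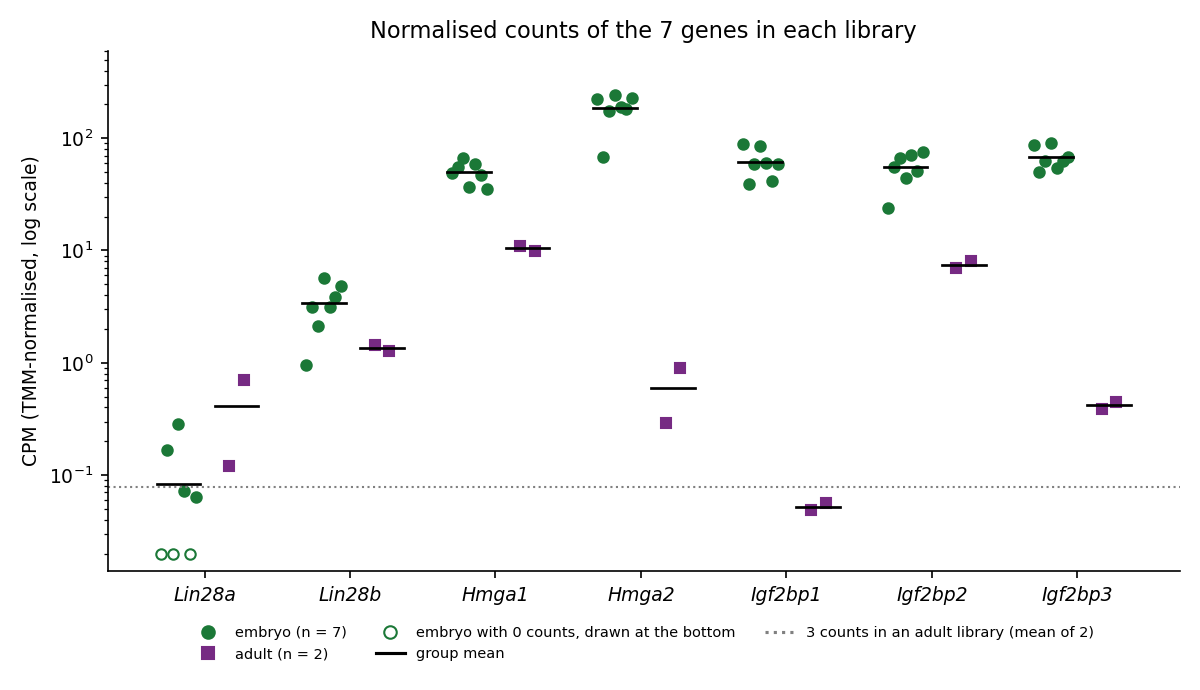
Normalised counts of the 7 genes in every library. The vertical axis gives CPM on a log scale, green circles are the 7 embryos, purple squares are the 2 adults, black lines are group means, open circles are embryos with 0 counts drawn at the bottom, and the dotted line is the level of 3 counts in an adult library. Every embryo lies above both adults for Hmga1, Hmga2 and the 3 Igf2bp genes, and the groups overlap for Lin28a and Lin28b.

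*Lin28a* (ENSMUSG00000050966; GRCm38 chromosome 4, 134003330 to 134018841, minus strand) was close to the limit of detection. It had 0 counts in embryos 1, 3 and 6, 5 in embryo 2, 4 in embryo 4, and 2 in embryos 5 and 7, and it had 5 counts in adult 1 and 25 in adult 2. Its level was at most 0.282 CPM in an embryo, and it was 0.121 and 0.703 CPM in the adults. All embryos were thus below adult 2, and embryos 2 and 4 were above adult 1. The mean count of 4.78 kept it from the test. The ratio of mean CPM was 0.204, a log2 value of −2.29, and the ratio of the summed counts had a 95% counting interval of 0.0990 to 0.409. When no filter on low counts was used, its log2 fold change was −2.26 and it was not called. Over the 9 alternatives that could test it the values ranged from −2.56 to −1.26, the last with the unstranded count. Without embryos 1 and 4 its mean rose above the filter and it was called higher in the adult, with a log2 fold change of −2.56 (edgeR adjusted p = 0.046; 0.046 to 0.50 over these alternatives). Most of the adult counts came from adult 2 alone. The adults, with 5 and 25 counts against at most 5 in an embryo, carried the mean past the filter, so nothing is read from this call of *Lin28a*.

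*Lin28b* (ENSMUSG00000063804; chromosome 10, 45376620 to 45486395, minus strand) was detected in every library at a low level. It had 13 to 149 counts in the embryos (median 81), and 59 and 45 in the adults. The corresponding levels were 0.952 to 5.71 CPM in the embryos (median 3.15) and 1.43 and 1.27 CPM in the adults. Of the 7 embryos, 6 were above both adults and embryo 1 was below both. The embryo mean was 3.38 ± 1.60 CPM (SD, n = 7) and that of the adults 1.35 ± 0.117 CPM (SD, n = 2), and the log2 fold change of 1.33 (standard error 0.62, edgeR adjusted p = 0.088) did not pass the threshold. The spread between embryos was 6.0-fold from lowest to highest, which was wider than in any other of the 6 tested genes. This result depended on a correction for exon length and GC content, which were corrected together and not apart. Fold changes fell with the length of the gene’s exons across all tested genes, with a Spearman correlation of −0.355, in which genes are not independent of each other. After each library was corrected for length and GC content, the correlation was 0.0651 and *Lin28b* was called, with a log2 fold change of 2.59 (edgeR adjusted p = 0.0050; 0.0050 to 1 over all alternatives). Its exons span 9065 bases, among the longest of the 7 genes, and the GC content of its longest transcript, 40.6%, is the lowest. Without embryos 1 and 4 its log2 fold change was 1.36 (edgeR adjusted p = 0.023), and without embryo 1 alone it was 1.54 (edgeR adjusted p = 0.019). In both it stayed below the threshold on fold change. With replicate number as a block, on replicates 1 and 2 of both stages, the log2 fold change of *Lin28b* was 0.43 (edgeR adjusted p = 0.81).

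*Hmga1* (ENSMUSG00000046711; chromosome 17, 27556497 to 27563674, plus strand), which encodes the AT-hook protein that is the more widely expressed of the pair, was present at both stages. It had 34.9 to 66.9 CPM in the embryos (median 49.0) and 11.0 and 9.98 CPM in the adults. All embryos were above both adults, with embryos 4 and 7 lowest. The means were 49.9 ± 11.5 CPM (SD, n = 7) and 10.5 ± 0.726 CPM (SD, n = 2). The log2 fold change was 2.25 (standard error 0.33, edgeR adjusted p = 9.8e-05), a 4.75-fold difference. The call was close to the threshold on fold change. It was lost after the correction for length and GC content, with a log2 fold change of 1.46, and in a test against the fold change of 4 itself (edgeR adjusted p = 0.38; 3.1e-12 to 0.38 over all alternatives). Without embryos 1 and 4 the log2 fold change was 2.35. The shift of *Hmga1* was thus opposite to that of *Lin28b* under the same correction. The exons of *Hmga1* span 2125 bases, and its longest transcript has a GC content of 61.4%. A gene on the other strand, *AI413582*, shares 102 exon bases with *Hmga1*, and the strand-specific count keeps them apart.

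*Hmga1b* (ENSMUSG00000078249; chromosome 11, 120762794 to 120764419), a copy of *Hmga1*, shares sequence with it, so that read pairs that align to both are not counted for either, and the counts of both genes are uncertain. It had 8.42, 15.1 and 11.6 CPM in embryos 1, 3 and 4, and 0.396 to 0.574 CPM in the other 4 embryos. The adults had 0.0970 and 0.0562 CPM, from 4 and 2 counts. The embryos thus fell into separate ranges, with none between 0.574 and 8.42 CPM. Its log2 fold change was 6.0 (standard error 1.90, edgeR adjusted p = 0.017). With the counts of both genes added together, which was decided on once the data had been seen, the log2 fold change of *Hmga1* was 2.38.

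*Hmga2* (ENSMUSG00000056758; chromosome 10, 120361275 to 120476469, minus strand) encodes the more strictly fetal of the HMGA proteins. It had 2029 to 7168 counts in the embryos (median 3637), and 12 and 32 in the adults. The levels were 68.6 to 244 CPM (median 188) in the embryos and 0.291 and 0.900 CPM in the adults. Embryo 2 was lowest, and the other embryos lay between 174 and 244 CPM. The means were 187 ± 58.5 CPM (SD, n = 7) and 0.595 ± 0.430 CPM (SD, n = 2). The log2 fold change was 8.30 (standard error 0.70, edgeR adjusted p = 1.0e-06). Only 41 of the 19371 tested genes had a higher fold change. Adult 2 moved the value most. The log2 fold change was 9.29 without adult 2 and 7.67 without adult 1, and it was 8.18 without embryos 1 and 4. Embryo 2 also had the highest sum of neural and posterior lobe markers, 502 CPM against 142 to 320 CPM in the other embryos, and of endothelial markers, 547 CPM, and the lowest sum of pituitary progenitor markers, 662 CPM. Their part in the low value of *Hmga2* was not tested.

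*Igf2bp1* (ENSMUSG00000013415; chromosome 11, 95957163 to 96005940, minus strand) showed the largest fold change of the 7 genes, as it was almost undetected in the adult. It had 834 to 1833 counts in the embryos (median 1212) and 2 counts in each adult. The levels were 38.9 to 88.3 CPM (median 59.4) in the embryos and 0.0485 and 0.0562 CPM in the adults. Embryos 1 and 4 were highest and embryos 2 and 6 lowest. The ratio of summed counts, each scaled to library size, was 1115, with a 95% exact counting interval of 436 to 4095. Against 3 counts in each adult library the mean of the embryos, 61.7 ± 19.3 CPM (SD, n = 7), was 786-fold higher, and the lowest embryo was 495-fold higher. The fitted log2 fold change of 10.08 (standard error 0.64, edgeR adjusted p = 1.0e-07), which at such counts depends on the prior count of the fit, was exceeded by 8 of the tested genes.

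*Igf2bp3* (ENSMUSG00000029814; chromosome 6, 49085223 to 49214957, minus strand) was detected in every library, at a low level in the adult. It had 1197 to 2135 counts in the embryos (median 1466) and 16 in each adult. These corresponded to 49.5 to 90.2 CPM (median 63.1), and to 0.388 and 0.450 CPM. The spread between embryos was 1.82-fold from lowest to highest, the narrowest of the 6 tested genes. The means were 68.0 ± 15.6 CPM (SD, n = 7) and 0.419 ± 0.0438 CPM (SD, n = 2). The log2 fold change was 7.33 (standard error 0.45, edgeR adjusted p = 8.8e-08). As in *Igf2bp1*, embryos 1 and 4 were highest, with 87.7 and 90.2 CPM. When counts were scaled to library size alone, without the TMM factor, embryo 7 was highest for *Igf2bp3* at 82.9, and embryos 1 and 7 were highest for *Igf2bp1* at 72.1 and 71.2. In TPM, counts per exon length as defined below, embryos 1 and 4 were lowest for *Igf2bp3*, at 14 and 13 TPM, and had 11.9 and 10.4 for *Igf2bp1*, so their place among the embryos depended on the scaling. Without embryos 1 and 4 the log2 fold changes were 7.17 for *Igf2bp3* and 9.87 for *Igf2bp1*. The exons of *Igf2bp3* share 1529 bases with *Malsu1* on the opposite strand, and the unstranded count gave a log2 fold change of 5.12.

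*Igf2bp2* (ENSMUSG00000033581; chromosome 16, 22059009 to 22163299, minus strand), which many adult tissues express, was the member of its family that was retained in the adult. It had 24.0 to 75.4 CPM (median 55.4) in the embryos, and 6.98 and 7.98 CPM in the adults. All embryos were above both adults. The embryos with the lowest levels were embryos 1 and 4, at 24.0 and 44.0 CPM, and in TPM, defined below, they were also the lowest, at 4.23 and 6.96. The means were 55.2 ± 17.7 CPM (SD, n = 7) and 7.48 ± 0.709 CPM (SD, n = 2). The log2 fold change was 2.88 (standard error 0.43, edgeR adjusted p = 1.1e-04). It was 3.12 without embryos 1 and 4. The part of the erythroid markers, which were high in these embryos, was not tested.

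**Figure D3:**
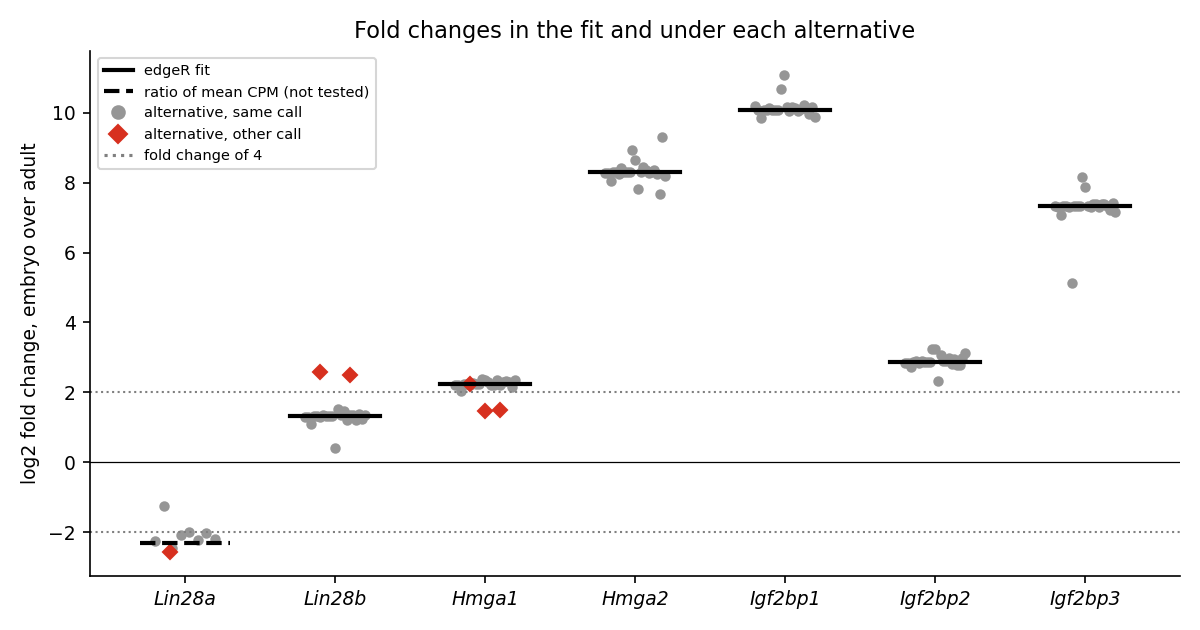
Log2 fold changes of the 7 genes, embryo over adult, on the vertical axis. Black bars are the values of the edgeR fit (dashed for Lin28a, the ratio of mean CPM, which was not tested), grey circles are alternatives with the same call and red diamonds alternatives with another call, and dotted lines mark a fold change of 4. Hmga2, Igf2bp1 and Igf2bp3 stay above 5.1 throughout, whereas Lin28b moves above and Hmga1 below the dotted line with the correction for length and GC content together.

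Levels were compared between genes as TPM, counts divided by the summed length of a gene’s exons and scaled to the same total in each library. In the embryo the order of the means was *Hmga2* (57.6 ± 27.3 TPM, SD, n = 7), *Hmga1* (50.9 ± 20.9), *Igf2bp2* (17.4 ± 10.1), *Igf2bp3* (17.0 ± 4.69), *Igf2bp1* (12.9 ± 4.02), *Lin28b* (0.813 ± 0.469) and *Lin28a* (0.0410 ± 0.0427). *Hmga2* was above *Hmga1* in 5 of 7 embryos and *Igf2bp2* above *Igf2bp3* in 4 of 7, so the order of these neighbours varied between embryos, and the median was higher for *Hmga1* (52.5 TPM) than for *Hmga2* (51.1 TPM). The other neighbours kept their order in 7 of 7 embryos. Of all tested genes 10.2% had a higher mean TPM than *Hmga2* in the embryo, and 31.4% had a higher mean than *Igf2bp1*. In the adult *Hmga1* was highest, with 14.7 and 13.2 TPM, followed by *Igf2bp2* with 2.68 and 3.04 TPM. *Lin28b* had 0.449 and 0.393 TPM, *Lin28a* 0.0862 and 0.495 TPM, *Hmga2* 0.122 and 0.374 TPM, and *Igf2bp3* 0.135 and 0.155 TPM. The order of these 4 differed between the 2 adults, and *Igf2bp1* was lowest in both, with 0.0142 and 0.0163 TPM. *Hmga2* was thus among the highest 2 of the 7 genes in every embryo and in the lower part of the order in both adults. With the longest annotated transcript in place of summed exons, *Hmga2* was 1.90-fold above the next gene in the embryo, *Hmga1*, against 1.13-fold with summed exons. The means of *Igf2bp2* and *Igf2bp3* then changed places, with 19.8 and 24.5 TPM, so the shares below depend on the length that is used.

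The make-up of each family changed accordingly. *Igf2bp1*, *Igf2bp2* and *Igf2bp3* gave 28.3% ± 6.30, 34.2% ± 11.2 and 37.5% ± 5.98 (SD, n = 7) of their summed TPM in the embryo, so that none dominated. In the adults *Igf2bp2* gave 94.7% and 94.7%, *Igf2bp3* 4.77% and 4.84%, and *Igf2bp1* 0.503% and 0.510%. The share of *Igf2bp2* was 14% in embryo 1 and 23.0% in embryo 4, and 36.7% to 42.6% in the other embryos, so every embryo was far below both adults. The summed TPM of the family was 30.1 to 78.8 in the embryos (median 43.2) and 2.83 and 3.21 in the adults. *Hmga2* gave 28.0% to 67.4% (median 54.5%) of the summed TPM of *Hmga1* and *Hmga2* in the embryos, with embryo 2 lowest, and 0.823% and 2.75% in the adults. These shares are a description, as the counts behind them are those tested above.

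**Figure D4:**
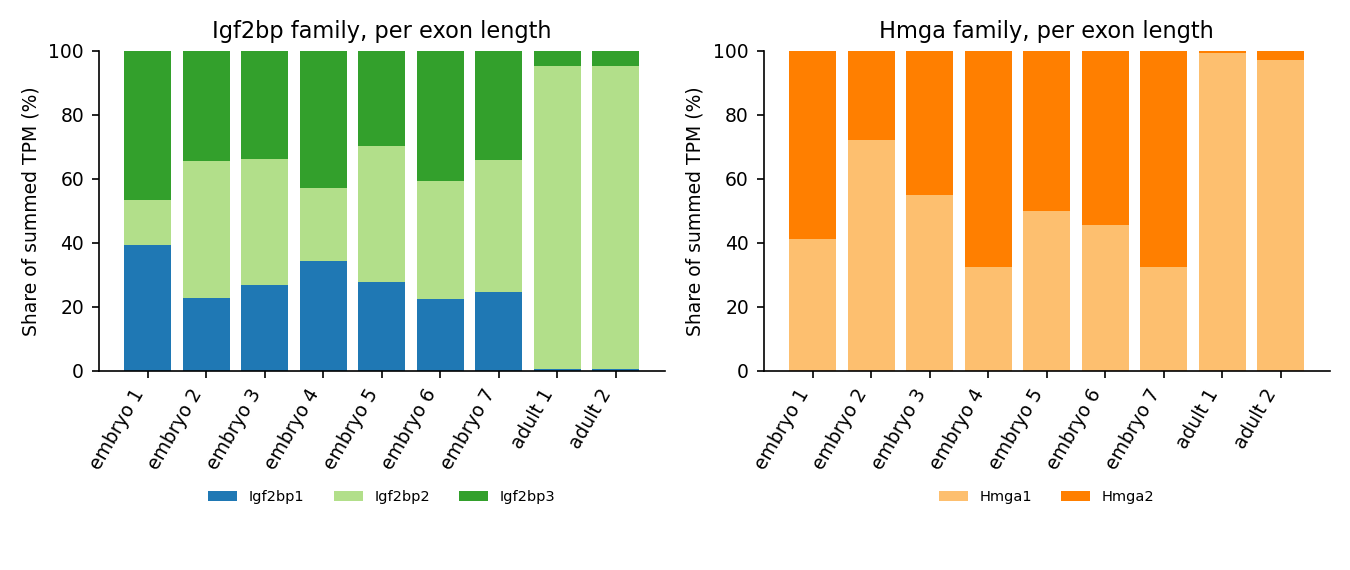
Shares of each family’s summed TPM in every library. The vertical axes give percent of the sum of Igf2bp1, Igf2bp2 and Igf2bp3 (left) and of Hmga1 and Hmga2 (right), and each bar is 1 library. In both adults Igf2bp2 gives 94.7% of the Igf2bp sum and Hmga1 nearly all of the Hmga sum, whereas the embryos hold every gene of both families.

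Genes that act on let-7 were examined next. Of 17 genes of let-7 processing and decay, all tested, 1 was called higher in the embryo and 0 higher in the adult, against 11.3% and 14.6% of all tested genes. Without the threshold on fold change 10 had an adjusted p below 0.05, against 9948 of the 19371 tested genes. The median log2 fold change of the 17 genes was −0.24, and 0.19 after the correction for length and GC content. The called gene was *Tarbp2*, a partner of Dicer, with 42.3 to 108 CPM (median 67.9) in the embryos and 17.7 and 13.6 CPM in the adults, so that every embryo was above both. Its log2 fold change was 2.26 (edgeR adjusted p = 2.4e-04). The terminal uridylyl transferases *Tut4* and *Tut7* were lower in all 7 embryos than in both adults, with 16.6 against 58.8 CPM and 15.7 against 41.6 CPM, log2 fold changes of −1.83 and −1.40 that were below the threshold on fold change. After the correction for length and GC content *Tut4* was at −0.73 and *Tut7* at −0.0025. *Dis3l2*, the exonuclease, had 35.6 ± 10.9 and 23.9 ± 2.69 CPM (0.58, and 1.99 after the correction). *Dicer1* had a log2 fold change of −1.20 that turned to 0.19 with that correction.

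Of 17 let-7 host transcripts or precursors, 15 were found in the annotation and 3 were tested. The host *Mir99ahg*, which varied from 12.6 to 84.3 CPM between embryos, was called higher in the embryo (2.34, and 1.66 to 3.99 over the alternatives, of which 18 of 24 called it) and *Huwe1*, a ubiquitin ligase gene that holds let-7 family members in an intron, higher in the adult (−2.16), and *Wdr82* was not called (0.93). The call of *Huwe1* was lost after the correction for length and GC content (−0.47). The precursors themselves had at most 4 counts in any library. Of the 22 other known let-7 targets on the list, 15 held a let-7 seed match in the 3′ UTR by the same search, 21 were tested, and 0 were called by edgeR in either direction. Of all tested genes 25.8% were called in either direction, which applies to the host transcripts as well. At an unadjusted p below 0.05 there were 12 of the targets, a cut for which no share of all tested genes is given. Without the threshold on fold change 11 of them had an adjusted p below 0.05, against 9948 of the 19371 tested genes. DESeq2 called 0 of the targets. The median log2 fold change of the targets was −0.41, and 0.26 after the correction for length and GC content. *Nr6a1*, with 8 matches the most of the list, had a log2 fold change of −1.84 (−0.97 after the correction). *Insr* and *Irs2*, with 1 match each and lower in all 7 embryos than in both adults, had the largest changes, −1.95 and −1.88 (−0.71 and −1.77 after the correction). *Nras*, with 1 match, and *Hras*, with 0, had 1.55 and 1.75. *Trim71*, a stem cell ubiquitin ligase gene with 4 matches, was not tested and had at most 15 counts in any library and 0 in both adults. After the correction for length and GC content *Nras* was called higher in the embryo, at 2.16.

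More widely, the 1478 tested genes with at least 1 match had a median log2 fold change of −0.34, against −0.10 in the 14076 without, and their 3′ UTRs were longer, with medians of 2322 and 948.5 bases. After the correction for length and GC content the medians were −0.08 and −0.11. The 182 genes with at least 2 matches had a median of −0.38 (0.16 corrected), and the 27 with at least 3 had −0.09 (0.69 corrected). Of the genes with a match 7.65% were called higher in the embryo, and of those without 10.1%. The share was 6.04% with at least 2 matches and 11.1% with at least 3.

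Among RNAs known to be bound by IGF2BP proteins, 3 of 8 were called higher in the embryo and 2 higher in the adult, with a median log2 fold change of 0.89. Of all tested genes 11.3% and 14.6% were called in these directions, which applies to the next list as well. *H19*, an imprinted long non-coding RNA, had 2678 to 4682 CPM (median 3343) in the embryos and 7.03 and 9.22 CPM in the adults (8.71). *Igf2*, the growth factor gene that gave the proteins their name, had 20.7 to 58.3 CPM (median 50.0) and 0.800 and 0.647 CPM (6.01). All embryos were above both adults for both RNAs. *Gli1* was also called higher in the embryo (3.53), *Ptgs2* (−3.12) was called higher in the adult, and *Actb* was not called (1.85). The genes of fetal growth outside the family include *Igf2* and *H19* too. Of these 13 genes 3 were called higher in the embryo, *Gpc3* (2.93) being the other one, 1, *Plag1* (−2.08, and −1.03 after the correction), was called higher in the adult, and 9 were not called, with a median of 0.58. *Plagl1* (−1.997), just below the threshold on fold change and called in 9 of 24 alternatives, *Dlk1* (1.60), *Ezh2* (1.67) and *Igf1r* (−1.08) were among those not called. After the correction they were at −1.30, 1.57, 2.39 and 0.14, and *Ezh2* was called higher in the embryo.

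Among proteins of related types, 2 of 7 other HMG genes were called higher in the embryo, *Hmgb2* (2.98) and *Hmgn2* (2.79), with a median of 1.77. *Hmgb3* (1.99) and *Hmgn1* (1.77) were not called, as their fold changes were below 4, although 11 of 24 alternatives called *Hmgb3*. After the correction for length and GC content *Hmgb1* (2.13) was called too. Of 6 genes of other cold shock domain proteins, the domain that LIN28 carries, 0 were called by edgeR and 0 by DESeq2. Their median was 0.75. Without the threshold on fold change 5 of the 6 had an adjusted p below 0.05, against 9948 of the 19371 tested genes. *Ybx1* had a log2 fold change of 1.49. Of 8 embryonic stem cell genes only *Sall4* passed the filter and it was called higher in the embryo, with a median of 1.03 CPM and counts of up to 47 in the embryos and counts of 0 and 3 in the adults. Its fitted log2 fold change was 4.81, and 3.81 to 8.00 over the alternatives, of which 20 of 23 called it. At such adult counts this value depends on the prior count of the fit and is not an exact fold. The embryo counts carried its mean past the filter, so nothing is read from this call of *Sall4*. The other 7, among them *Pou5f1* and *Nanog*, had at most 10 counts in any library. In all, 13 of the 71 tested genes of these lists were called (18.3%), against 25.8% of all tested genes.

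**Figure D5:**
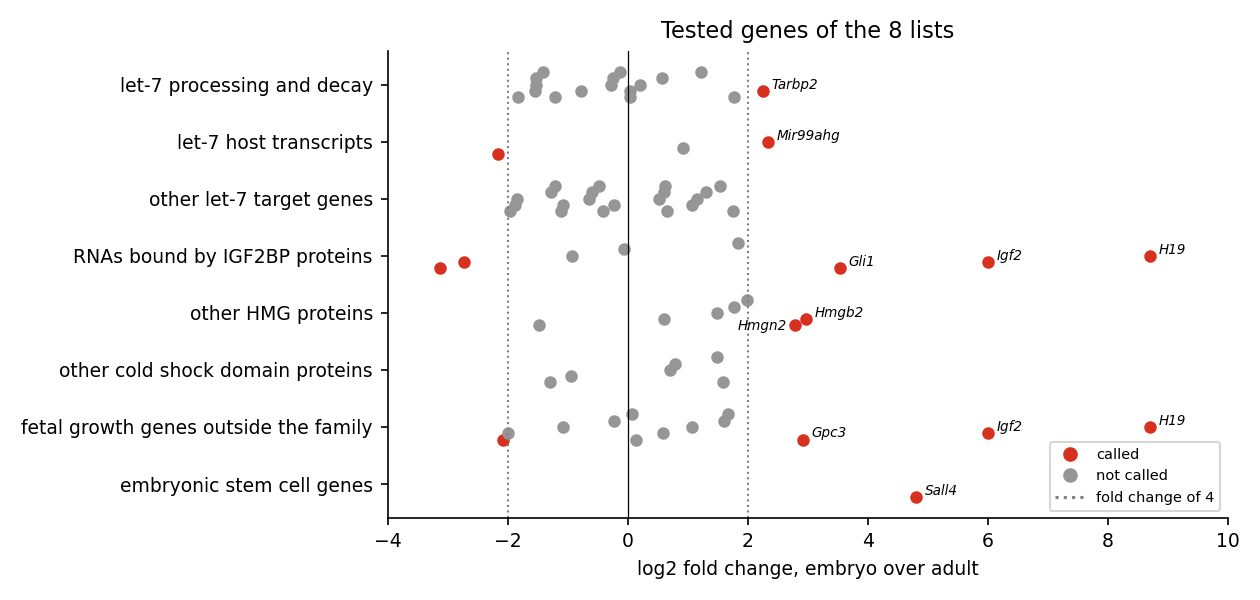
Log2 fold changes, embryo over adult, of the tested genes of the 8 lists. The horizontal axis gives the log2 fold change, each circle is 1 gene, red circles are called, with names where higher in the embryo, grey circles are not called and dotted lines mark a fold change of 4. No gene of the other let-7 targets or of the cold shock domain proteins was called, and H19 and Igf2 lie farthest to the right.

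The genes with the most similar pattern over the 9 libraries were found as those with the smallest root mean square distance between log2(CPM + 0.5) profiles, each centred on its mean, among the 14079 genes that averaged 50 counts or more. *Igf2bp1* and *Igf2bp3* were the nearest to each other of all these genes (distance 0.312), and the nearest to *Hmga2* were *Igf2bp1* (0.474), *Crabp2* (0.507) and *Igf2bp3* (0.636). *Tead2* was among the 3 nearest of both *Igf2bp1* (0.489) and *Igf2bp3* (0.380), with 451 and 5.79 CPM at the 2 stages, and *Hmga2* (0.474) and *Crym* (0.407) completed them. The nearest to *Igf2bp2* were *Smtnl1* (0.184), *Ccnjl* (0.254) and *Ttc23* (0.267), and those to *Hmga1* were *Sept9* (0.179), *Nkiras2* (0.193) and *Limd2* (0.194). The nearest to *Lin28b* were *1700010I14Rik* (0.195), *Gins3* (0.283) and *Alg14* (0.309). For *Lin28a* they were *Birc3*, *Fank1* and *Nmb* (0.196 to 0.232). The added 0.5 shapes these distances wherever levels are low, as for *Lin28a*, for *Smtnl1* (3.08 and 0.0383 CPM at the 2 stages, a log2 fold change of 6.15) and for the adult levels of *Hmga2*, *Igf2bp1* and *Igf2bp3*.

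Promoters, 250 bases before to 50 bases after the start, were found in the RefSeq table (GRCm38.p6) for 6 of the 7 genes, all but *Igf2bp1*. *Igf2bp2* and *Hmga1*, the members with the highest levels per length in the adult, had 47 CG dinucleotides, and 40 or 38 at the listed starts of *Hmga1*. As many were found in 1.44%, 3.91% and 4.95% of the 32851 promoters in the table. *Igf2bp3* had 25 CG, *Hmga2* 12, *Lin28a* 10 and *Lin28b* 8, the last at a start within the gene as annotated (chr10:45470152-45470451), and the median of the table was 7. The letters TATAAA were found on neither strand in any of them, against 13.6% of all promoters that held them on either strand. The promoters of *Igf2bp2* and *Hmga2*, at the ends of this range among the called genes, are shown 5′ to 3′ with CG in capitals. They lie at chr16:22163250-22163549 and chr10:120476420-120476719, both on the minus strand.
Igf2bp2: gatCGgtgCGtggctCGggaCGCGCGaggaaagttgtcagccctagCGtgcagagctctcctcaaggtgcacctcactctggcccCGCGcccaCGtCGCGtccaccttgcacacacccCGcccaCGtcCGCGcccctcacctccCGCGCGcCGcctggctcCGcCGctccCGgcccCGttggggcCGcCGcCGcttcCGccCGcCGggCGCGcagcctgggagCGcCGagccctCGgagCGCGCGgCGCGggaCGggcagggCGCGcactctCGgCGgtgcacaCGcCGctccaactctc
Hmga2: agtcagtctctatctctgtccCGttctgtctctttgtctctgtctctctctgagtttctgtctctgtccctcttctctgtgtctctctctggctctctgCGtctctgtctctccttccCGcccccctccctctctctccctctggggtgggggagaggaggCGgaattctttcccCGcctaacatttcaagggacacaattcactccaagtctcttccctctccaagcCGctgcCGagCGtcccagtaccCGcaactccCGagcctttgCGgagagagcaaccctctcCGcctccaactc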

How the data were processed

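The authors trimmed the reads with Trimmomatic 0.39, aligned them to mm10 with STAR 2.7.5b and deposited unnormalised STAR gene counts (Ensembl release 96). The strand-specific count was used, and all 55450 identifiers were matched to GENCODE release 21. Read pairs not counted (unmapped, multimapping, ambiguous or on no gene; 16.0% to 40.3% per library) stayed out of library sizes. Counts were normalised with TMM and tested with edgeR 4.0.16 in R 4.3.3 (counts averaging 5 or more, common dispersion 0.19, stage as the only term), and DESeq2 1.42.0 was an alternative. The fit was tested on simulated data. Exact counting intervals (95%) and other values were computed in Python 3.11.15 with scipy 1.17.1. The length and GC correction was made with splines (4 degrees of freedom) on genes averaging 50 counts or more. All pairs of libraries of a stage differed by more than sampling noise. The members and lists were chosen with earlier results of these data known. Named genes are the 7 members, list genes by call and size of change, the 3 nearest patterns and copies by symbol; *AI413582* and *Malsu1* were named after their values were seen. Some list genes are not reported here by name.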

Additional observations from a re-analysis of the deposited data

Results flagged for a closer look

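Of 27 measures checked over the 7 embryos (the 7 genes, *Hmga1b*, family shares and sums, marker sums and mapping shares), 1 had a sample far from the others, where chance alone gives about 5% of such measures. *Hmga2* was low in embryo 2, at 68.6 CPM against 174 CPM in the next lowest embryo, a gap of 0.601 of the whole range.

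The count on the strand opposite to *Igf2bp3*, used in the unstranded alternative only, was 81 and 77 in the adults, 4.94 times the 16 counts on the strand of the gene in each. In the embryos it was 0 to 40, against 1197 to 2135. *Malsu1*, which overlaps *Igf2bp3* on that strand, had 498 and 411 counts of its own in the adults and 753 to 1160 in the embryos. The source of the opposite-strand pairs was not tested.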

How the results depend on the processing

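The direction of all 7 genes held under every alternative that could test them, and 4 or 5 were called higher in the embryo in every alternative, though not always the same ones. *Hmga2*, *Igf2bp1*, *Igf2bp2* and *Igf2bp3* kept their calls wherever tested, with log2 fold changes of 7.67 to 9.29, 9.84 to 11.09, 2.34 to 3.25 and 5.12 to 8.17. *Igf2bp1* could not be tested with at least 10 counts in every sample. *Hmga1* lost its call with the length and GC correction (1.46, and 1.51 with the longest transcript, chosen after seeing the data) and in the test against a fold change of 4 (2.25). *Lin28b* gained one with these corrections (2.59 and 2.51), and *Lin28a* without embryos 1 and 4 (−2.56). Nothing is read from the call of *Lin28a*, which the adult counts carried past the filter. The causes were not tested. The corrections moved the share of calls higher in the embryo from 43.6% to 33.3%. The median of all genes moved from −0.04 to −0.26 with library size alone, −0.25 with the block and −0.18 with the correction.

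In all, 5001 genes were called, against 2634 with at least 10 counts in every sample, 8960 above a fold change of 2, 9948 with no threshold and 1744 in the test against 4. List genes called were 13, against 42 above a fold change of 2, 45 with no threshold and 5 in the test against 4. The ratio of *Hmga2* to the next gene in the embryo was 1.13, against 1.90 with the longest transcript. Leaving out 1 library gave 3683 to 5290 calls, and with a lone adult it is assumed to vary like the embryos.

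The replicate numbers name animals of different ages. Deviations from the stage mean had correlations of 0.0331 between embryo 1 and adult 1 and 0.000313 between embryo 2 and adult 2. With 2 adults the adult deviations mirror each other, so these correlations cannot decide whether the numbers pair the animals. With the replicate block on replicates 1 and 2, 4151 genes were called, *Lin28b* was at 0.43, *Lin28a* at −2.46 and *Hmga2* at 7.82, and no call among the 7 genes changed.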
